A study of Mus musculus with 15 samples.

Results

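Oligodendrocyte and myelin genes were followed in this series as 9 genes, the lineage factors Olig1 and Olig2 and the myelin genes Mbp, Mag, Mog, Mobp, Cnp, Cldn11 and Mal. Every probe set that the platform annotation lists with one of these genes and no other was taken, whatever its values, which gave 15 probe sets out of 45037 and 9 genes out of 17097. Mobp had 4 such probe sets, Cnp, Mbp and Mal had 2 each, and each of the other 5 genes had 1. A gene was read by the probe set with its highest mean over all arrays, and its other probe sets are described beside it.

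Values are log2 signals of 15 one-colour Affymetrix HT_MG-430_PM arrays, 1 array for each RNA sample, in 5 groups of 3. Myc secondary tumours grew after orthotopic transplantation of sphere cells cultured from Myc primary tumours. For Myc primary tumours, cerebellar cells of Cdkn2c-/-, Trp53-/-, Atoh1-GFP mice were infected with Myc and implanted into the cortex of nude mice, which are immunocompromised. Shh tumours were medulloblastomas that arose spontaneously in Cdkn2c-/-; Trp53Fl/Fl; Nestin-Cre mice, in which Cre driven by Nestin in neural progenitors deletes Trp53. GFP-positive and GFP-negative cells were sorted by flow cytometry from cerebella of Cdkn2c-/-, Trp53-/-, Atoh1-GFP mice at postnatal day 6. Atoh1 marks granule neuron progenitors, so the GFP-negative cells hold the remaining cell types of that tissue. The labels of the 6 sorted samples call them spontaneous tumour, and the study's description of sorted cerebella was followed here. All groups therefore share the loss of Cdkn2c and Trp53, which leaves no wild-type reference, and the age of the tumour-bearing mice is not given in the sources used here. Host cells of the nude mice do not carry the donor genotype. Tumour cells were dissociated and passed through a Percoll gradient, a density step that is often used to remove myelin debris. No label ties an array to an animal, so p-values reflect only how these samples scatter, which may be technical, and the number of arrays limits the precision. Markers of granule neuron progenitors averaged 9.80 to 10.01 in Shh tumours, 9.24 to 9.54 in GFP-positive cells and 6.09 to 6.36 in GFP-negative cells, and 4.25 to 5.99 in both sets of Myc tumours, over 4 measured genes. Over 1 probe set per gene the arrays of a group correlated at r = 0.962 to 0.995. Earlier results of these data had set Myc primary 3, GFP-negative 3 and Myc secondary 1 apart from their groups. Several results that rest on them are given with and without them.

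Oligodendrocytes are the glial cells that wrap axons of the central nervous system in myelin. Olig1 and Olig2 are basic helix-loop-helix transcription factors of the lineage; Olig2 specifies its precursors, and Olig1 takes part in maturation and repair. In the postnatal cerebellum, precursors enter the future white matter and switch on the genes of the myelin sheath as they mature. Mbp holds the cytoplasmic faces of the membrane together, Cnp is an enzyme of the uncompacted channels of the sheath, Mag faces the axon, Mog lies on the outer surface, Mobp is a compact-myelin protein, Cldn11 forms the tight junctions of the sheath and Mal is a proteolipid of membrane trafficking that also occurs outside this lineage.

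In rodents, Sox10 and Myrf are transcription factors that switch on myelin genes, and the promoters of 4 myelin genes are shown for their letters at the start site. They are RefSeq sequences of GRCm38.p6, each running from 250 bases before to 50 bases after a transcription start, and capitals mark matches to the letters searched for Sox factors and Myrf. The Sox letters were ACAAAG or ACAATG and the Myrf letters were CTGGCAC or CTGGTAC, on both strands, so that CTTTGT and GTACCAG are matches read from the other strand. The windows lie at chr11:100574689-100574988 on the plus strand for Cnp, chr7:30914814-30915113 on the minus strand for Mag, chr17:37023349-37023648 on the minus strand for Mog and chr9:120149492-120149791 on the plus strand for Mobp.
Cnp: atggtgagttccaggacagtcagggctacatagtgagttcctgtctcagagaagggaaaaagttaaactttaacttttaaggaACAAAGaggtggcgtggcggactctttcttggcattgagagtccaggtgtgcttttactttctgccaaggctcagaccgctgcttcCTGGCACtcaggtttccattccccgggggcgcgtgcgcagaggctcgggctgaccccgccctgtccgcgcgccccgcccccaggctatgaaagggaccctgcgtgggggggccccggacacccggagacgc
Mag: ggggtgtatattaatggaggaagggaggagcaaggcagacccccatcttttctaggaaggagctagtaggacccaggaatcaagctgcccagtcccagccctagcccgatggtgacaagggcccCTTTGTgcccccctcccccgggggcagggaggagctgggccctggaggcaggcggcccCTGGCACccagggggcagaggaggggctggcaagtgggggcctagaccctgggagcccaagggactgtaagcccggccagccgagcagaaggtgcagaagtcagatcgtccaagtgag
Mog: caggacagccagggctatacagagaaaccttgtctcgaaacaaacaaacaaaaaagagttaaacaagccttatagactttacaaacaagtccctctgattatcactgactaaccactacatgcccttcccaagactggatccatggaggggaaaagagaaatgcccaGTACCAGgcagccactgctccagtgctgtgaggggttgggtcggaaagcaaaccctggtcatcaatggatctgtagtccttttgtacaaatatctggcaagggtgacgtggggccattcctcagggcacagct
Mobp: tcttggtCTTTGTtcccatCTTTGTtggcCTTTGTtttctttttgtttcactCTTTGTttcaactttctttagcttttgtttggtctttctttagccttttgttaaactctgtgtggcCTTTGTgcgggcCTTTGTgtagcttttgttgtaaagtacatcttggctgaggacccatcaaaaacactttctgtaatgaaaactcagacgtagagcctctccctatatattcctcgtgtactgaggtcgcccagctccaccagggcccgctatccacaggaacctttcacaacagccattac

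Across 9 windows of the 7 member genes that the table held, Sox letters occurred in 4 genes, Olig2, Cnp, Mag and Mobp, and Myrf letters in 3 genes, Cnp, Mag and Mog. By window, 5 of the 9 held Sox letters and 4 Myrf letters. Mag had several windows: the one shown and one overlapping it share the same matches, and that at chr7:30914272-30914571 held neither. Mobp carried 6 Sox matches, with first bases at positions -243 to -120 from the start. Of 32851 mouse promoter windows of the same length, 28.6% held the Sox letters, 7.1% the Myrf letters and 72.3% the E-box CANNTG, the letters bound by basic helix-loop-helix factors. The E-box was found in Cnp and Mag alone among the 7 genes. These matches describe letters in a short window and not binding. The mean matches per window over all promoters were 0.35 for Sox and 0.08 for Myrf. Mal and Cldn11 had none of the 3 motifs in their windows, and the promoters of Olig1 and Mbp are not shown.

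GFP-negative cells had the highest group mean for each of the 9 genes. The 11 other arrays were lower than the GFP-negative arrays and Myc primary 3 for 8 of the 9 genes. The plot of members by array shows this. For Mog the split rests on GFP-negative 3 at 3.72 and Myc primary 1 at 3.54, both below the background. How many of all genes split in this way was not counted. The members differed in Shh tumours: Olig1 and Olig2 were well above the background there, and the 7 myelin genes were close to their level in GFP-positive cells. The background was set at 4.77, the 95% quantile of 23 nonspecific control probe sets. The mean was above it for all 9 genes in GFP-negative cells, 8 in Myc primary tumours, 5 in Shh tumours, 4 in Myc secondary tumours and 3 in GFP-positive cells.

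**Figure D1:**
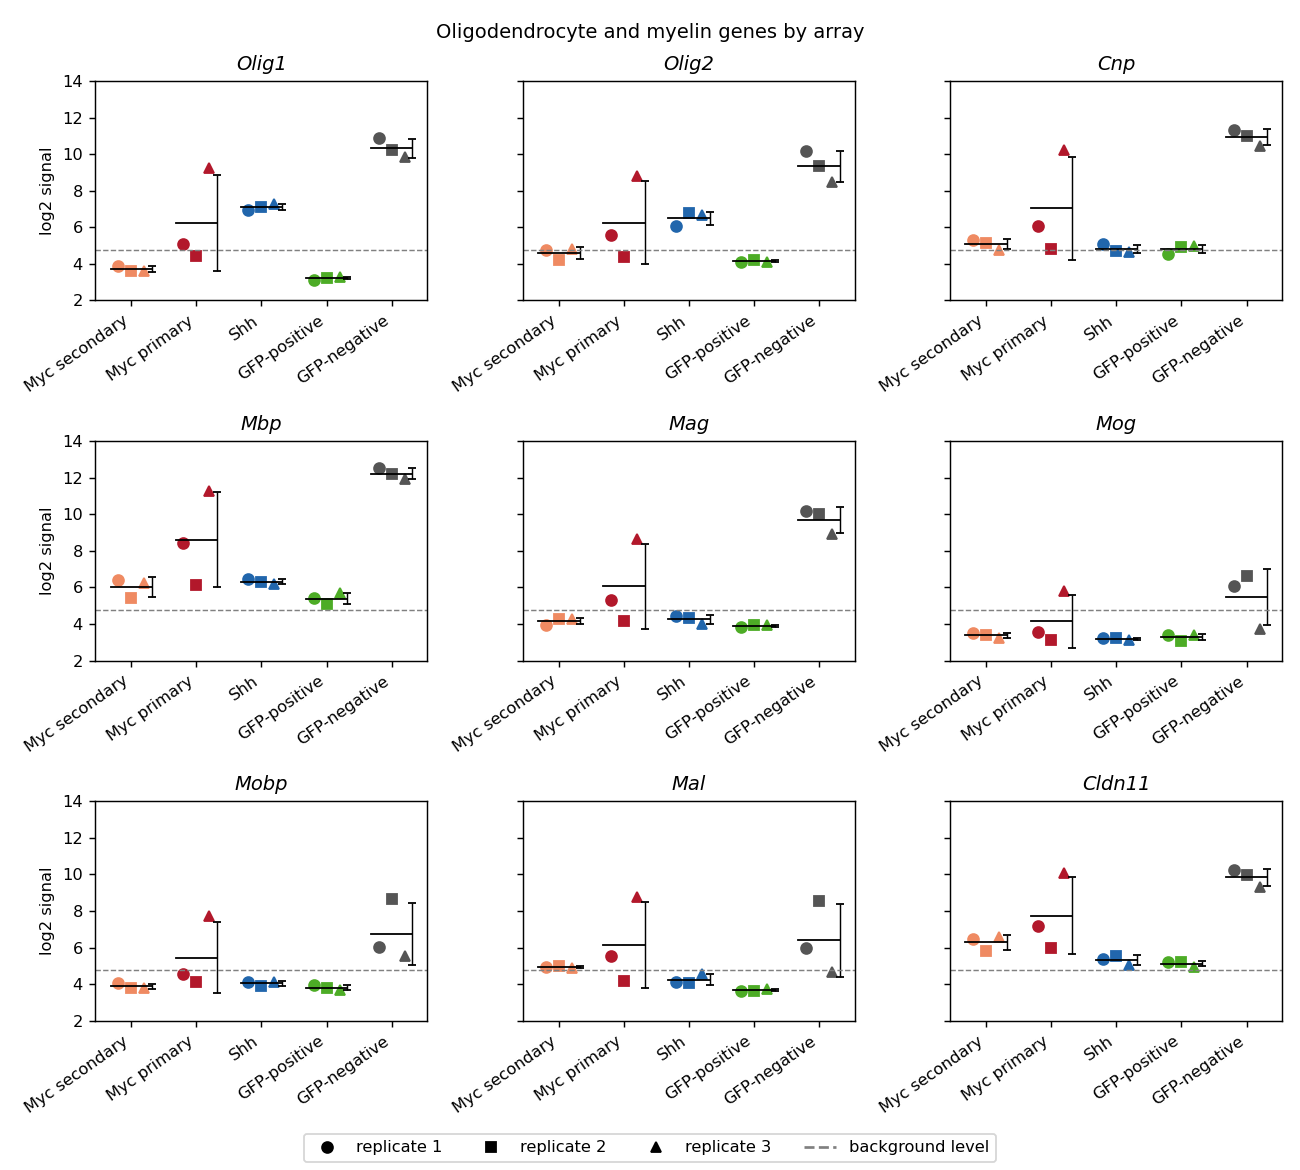
Log2 signal of the 9 genes on each of the 15 arrays, one panel per gene, with groups along the horizontal axis, points for arrays, horizontal lines for group means and bars for their SD (n = 3); the dashed line is the background level of 4.77. The GFP-negative arrays and the Myc primary 3 array lie above the rest in 8 of 9 panels, though GFP-negative 3 is below the background level for Mog. The Shh arrays stand above both Myc secondary and GFP-positive arrays for Olig1 and Olig2.

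Olig1 read 3.89, 3.63 and 3.62 in Myc secondary tumours, 5.09, 4.43 and 9.27 in Myc primary tumours, 6.96, 7.11 and 7.29 in Shh tumours, 3.14, 3.24 and 3.27 in GFP-positive cells and 10.88, 10.23 and 9.84 in GFP-negative cells. The 3 Shh arrays lay close together, between the GFP-negative cells and the groups at background, and the Myc primary tumours spanned both sides of them. Olig2 read 4.77, 4.21 and 4.79 in Myc secondary tumours, 5.59, 4.40 and 8.80 in Myc primary tumours, 6.09, 6.76 and 6.66 in Shh tumours, 4.11, 4.24 and 4.12 in GFP-positive cells and 10.18, 9.37 and 8.47 in GFP-negative cells. Its groups stood in the same order as those of Olig1, but the arrays of Myc secondary tumours and GFP-positive cells overlapped for Olig2 and did not for Olig1, where both groups were below the background. The 2 genes are neighbours on chromosome 16 of GRCm38.p6, with Olig2 starting at position 91225550 and Olig1 at 91269769.

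Cnp read 5.31, 5.15 and 4.78 in Myc secondary tumours, 6.07, 4.81 and 10.21 in Myc primary tumours, 5.07, 4.71 and 4.66 in Shh tumours, 4.56, 4.93 and 4.96 in GFP-positive cells and 11.33, 11.01 and 10.46 in GFP-negative cells. Mbp read 6.42, 5.42 and 6.22 in Myc secondary tumours, 8.43, 6.12 and 11.30 in Myc primary tumours, 6.48, 6.28 and 6.21 in Shh tumours, 5.40, 5.07 and 5.70 in GFP-positive cells and 12.53, 12.20 and 11.92 in GFP-negative cells. Mag read 3.95, 4.28 and 4.25 in Myc secondary tumours, 5.32, 4.17 and 8.67 in Myc primary tumours, 4.45, 4.35 and 3.99 in Shh tumours, 3.81, 3.92 and 3.95 in GFP-positive cells and 10.17, 10.03 and 8.90 in GFP-negative cells. For these 3 genes no array outside GFP-negative cells reached the lowest GFP-negative array, and Myc primary 3 came next below. The second probe sets of Cnp and Mbp had the same high arrays. That of Cnp averaged 4.19 in Shh tumours, against 8.73 in GFP-negative cells, and that of Mbp 4.51 in Shh tumours, against 10.51 in GFP-negative cells.

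Cldn11 read 6.46, 5.80 and 6.59 in Myc secondary tumours, 7.20, 5.98 and 10.05 in Myc primary tumours, 5.37, 5.56 and 5.02 in Shh tumours, 5.21, 5.23 and 4.94 in GFP-positive cells and 10.24, 9.95 and 9.31 in GFP-negative cells. Both sets of Myc tumours were above all Shh tumours for this tight-junction gene, with no overlap between arrays. Mal read 4.94, 4.98 and 4.90 in Myc secondary tumours, 5.55, 4.15 and 8.74 in Myc primary tumours, 4.12, 4.06 and 4.57 in Shh tumours, 3.60, 3.65 and 3.71 in GFP-positive cells and 5.95, 8.57 and 4.65 in GFP-negative cells. Mal was the exception to the high and low arrays, since Myc primary 1 and the 3 Myc secondary tumours were above the lowest GFP-negative array.

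Mog read 3.50, 3.40 and 3.23 in Myc secondary tumours, 3.54, 3.12 and 5.79 in Myc primary tumours, 3.24, 3.22 and 3.14 in Shh tumours, 3.39, 3.08 and 3.40 in GFP-positive cells and 6.09, 6.61 and 3.72 in GFP-negative cells. Mobp read 4.05, 3.80 and 3.78 in Myc secondary tumours, 4.55, 4.11 and 7.70 in Myc primary tumours, 4.13, 3.89 and 4.13 in Shh tumours, 3.94, 3.78 and 3.67 in GFP-positive cells and 6.05, 8.68 and 5.53 in GFP-negative cells. Mog was above the background on 3 arrays only, Myc primary 3, GFP-negative 1 and GFP-negative 2, and Mobp on 4, Myc primary 3 and the GFP-negative arrays. Of the 3 other Mobp probe sets, 1 was above it on the same arrays, 1 was also below it on GFP-negative 3, where it read 4.14, and 1 was below it in all groups and says nothing about the gene's level. The 14 remaining member probe sets were above it in at least 1 group.

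GFP-positive cells had lower signals than GFP-negative cells for 8 of the 9 genes, and no gene was higher. For comparison, 13.6% of all 17097 genes were called lower and 12.2% higher. The tests are limma's moderated two-sided test on the log2 values in 1 fit over the 5 groups, with Benjamini-Hochberg adjustment over all probe sets and a call at an adjusted p below 0.05. Olig1 had the widest measured difference of the members, -7.10 ± 0.88 (SE, n = 3 arrays each, adjusted p = 8.3e-05, limma). Since GFP-positive cells were below the background, this is a level at least 46.7-fold lower. Bounds of this kind set the dim group at the background and do not allow for the scatter between arrays. Mbp differed by -6.82 ± 0.88 (adjusted p = 0.00011, limma), which is 113-fold. Olig2 was at least 23.8-fold lower (adjusted p = 0.00051, limma) and Mag at least 30.5-fold lower (adjusted p = 0.0002, limma), both against the background level. Cnp was 69.4-fold lower and Cldn11 26.2-fold lower. Cnp was above the background on 2 of the 3 GFP-positive arrays and close to it on all, so the size of its fold is uncertain.

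Mog differed by -2.18 in GFP-positive cells relative to GFP-negative cells, and Mobp was at least 3.95-fold lower, with limma adjusted p of 0.038 and 0.023. No bound is given for Mog, since GFP-negative 3 read 3.72, itself below the background. Both calls depend on single arrays and on the processing. Mog was not called in 9 of the 15 fits that leave out 1 array, those without any GFP-positive array, GFP-negative 1 or 2, Myc secondary 2 or 3 or Shh 1 or 2 (adjusted p = 0.05 to 0.16, limma), nor on the 6 arrays alone (0.075) nor after cyclic loess normalization (0.051). Mobp was not called without any one GFP-positive array or GFP-negative 2 (adjusted p = 0.059 to 0.097, limma). Without the 3 arrays set apart, Mog differed by -3.06 and Mobp by -3.57 (adjusted p = 2.3e-06 and 0.001, limma). That fit drops GFP-negative 3, the lowest GFP-negative array for both genes. The GFP-positive samples and GFP-negative 3 carry higher title numbers than GFP-negative 1 and 2. No label names a run, and the 2 runs were set here at a gap in these numbers. A term for the run can be estimated only from GFP-negative 3 against GFP-negative 1 and 2. That array is also one set apart from its group, so run and array cannot be told apart. With this term 6 members were called, and Mog (-0.43, adjusted p = 0.74, limma) and Mobp (-1.73, adjusted p = 0.32, limma) were not. Mal differed by -2.74 ± 1.01 and was not called (adjusted p = 0.072, limma). The arrays of the 2 groups did not overlap for any of the 9 genes, as was the case for 42.8% of all genes. The median difference of the 9 genes was -5.19, and that of all genes 0.04. By probe set, 11 of 15 were lower, beside 10.2% of all probe sets. In bulk RNA such as this, fewer cells of a type and less RNA per cell cannot be told apart.

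The GFP-negative arrays also differed among themselves. The third had the lowest value of the 3 for all 9 genes, the first the highest for 6 genes and the second the highest for Mog, Mobp and Mal. These places were not counted over all genes. The span over the 3 arrays was 3.92 for Mal, 3.15 for Mobp and 2.89 for Mog, against 0.61 for Mbp to 1.71 for Olig2 among the other 6 genes. The markers of other cell types ran differently: GFP-negative 2 was highest for 8 of 8 microglial, 7 of 7 endothelial and mural and 6 of 6 fibroblast markers, and GFP-negative 1 for 7 of 8 astroglial markers. The mean of the microglial list was 9.76 to 11.06 in GFP-negative cells, against 3.86 to 4.26 in GFP-positive cells, and that of the astroglial list 9.05 to 10.11 in GFP-negative cells, against 5.06 to 5.23 in GFP-positive cells. Their part in the member values was not tested. In a fit without GFP-negative 3 all 9 members were called lower, and over each array left out in turn they numbered 6 to 9.

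**Figure D2:**
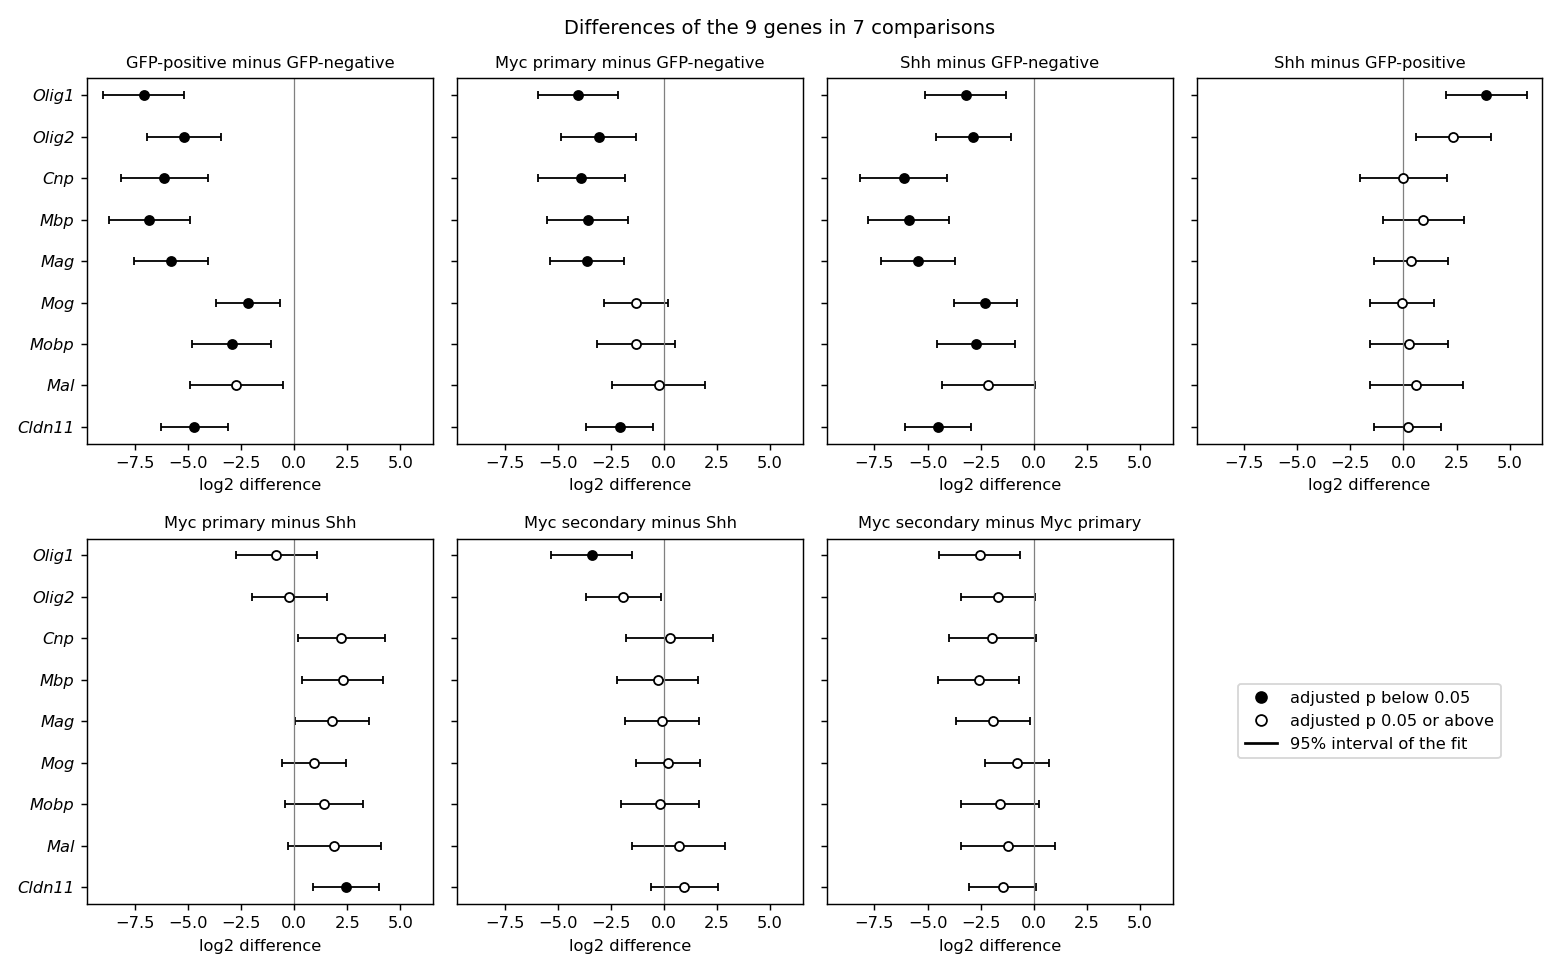
Log2 difference of each of the 9 genes in each comparison, first-named group minus the second, with 95% confidence intervals of the limma fit and filled points for called differences. The 3 comparisons with GFP-negative cells lie to the left of 0, and among the rest only Olig1 in Shh tumours against GFP-positive cells, Olig1 in Myc secondary against Shh tumours and Cldn11 in Myc primary against Shh tumours were called.

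Shh tumours had lower signals than GFP-negative cells for 8 of the 9 genes as well, beside 12.6% of all genes lower and 15.1% higher. Cnp was 69.7-fold lower in Shh tumours (-6.12 ± 0.94, SE, adjusted p = 0.00053, limma) and Mbp 59.3-fold lower (-5.89 ± 0.88, adjusted p = 0.00041, limma). Only 1 of the 3 Shh arrays was above the background for Cnp, so the size of its fold is uncertain. Mag was at least 30.5-fold lower, the Shh arrays being below the background. For the lineage factors the differences were smaller, -3.20 ± 0.88 for Olig1, a 9.18-fold lower signal, and -2.84 ± 0.81 for Olig2, a 7.14-fold lower signal (adjusted p = 0.019 and 0.023, limma). The difference between the 2 sizes was not tested. Cldn11 was 22.9-fold lower and Mobp at least 3.95-fold. Mog differed by -2.27, a GFP-negative array also being below the background, and Mal at -2.14 ± 1.01 was not called (adjusted p = 0.16, limma). Without the 3 arrays set apart, Mal was called lower too (-3.01, adjusted p = 0.0061, limma).

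The median of the 9 genes in Shh tumours against GFP-negative cells was -3.20 beside 0.01 for all genes, and 11 of 15 probe sets were lower beside 9.73% of all probe sets. Arrays of the 2 groups did not overlap for any of the 9 genes, as for 40.9% of all genes. The count is not stable to single arrays: it was 4 without Shh 1 and 5 without Shh 2, Shh 3, GFP-negative 1 or GFP-negative 2. Mog lost its call in each of these 5 fits and Mobp in 4 of them, and Olig1 and Olig2 lost theirs in some, with adjusted p of at most 0.058 and 0.078 (limma). Cnp, Mbp, Mag and Cldn11 were called in all 5. This comparison and that of GFP-positive cells share the GFP-negative arrays, so they are not independent.

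Against GFP-positive cells, Shh tumours had a higher signal for Olig1 alone among the 9 genes, and none was lower. In this comparison 4.97% of all genes were called higher and 3.17% lower. The Olig1 difference was 3.90 ± 0.88 (SE, adjusted p = 0.016, limma), at least 5.1-fold over the background. Olig2 differed by 2.35 ± 0.81, at least 3.32-fold, and was not called (adjusted p = 0.10, limma). The standard errors draw on all 5 groups, of which the Myc primary tumours had an SD of 2.62 for Olig1, against 0.17 in Shh tumours and 0.07 in GFP-positive cells. In a fit on the 6 arrays of these groups alone, adjusted p was 2.8e-05 for Olig1 and 0.00066 for Olig2 in limma, and Mbp (0.94, adjusted p = 0.013) and Mal (0.6, adjusted p = 0.036) were called higher too, 4 members in all beside 18.4% of all genes called. Leaving out Myc primary 3, both Olig1 and Olig2 were called (adjusted p = 4.3e-06 and 0.004, limma). The Olig1 call was lost, with adjusted p of 0.051 to 0.058, without Shh 3 or any one of the GFP-positive arrays. The Shh and GFP-positive samples fall on either side of the cut in title numbers, and only GFP-negative cells fall on both. A term for the run carries over the offset of GFP-negative 3 from the other GFP-negative arrays. With it, Olig1 differed by 3.19 and was not called (adjusted p = 0.30, limma).

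The 6 myelin genes other than Mbp differed by -0.09 to 0.6 between Shh tumours and GFP-positive cells. The interval of the difference was -2.06 to 2.04 for Cnp, -1.38 to 2.11 for Mag and -1.37 to 1.76 for Cldn11, intervals that draw on the spread of all 5 groups. Arrays of the 2 groups did not overlap for 5 of 9 genes, beside 39.6% of all genes. The plot of the Olig genes against the myelin genes shows the Shh tumours apart from the other arrays along the Olig axis.

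**Figure D3:**
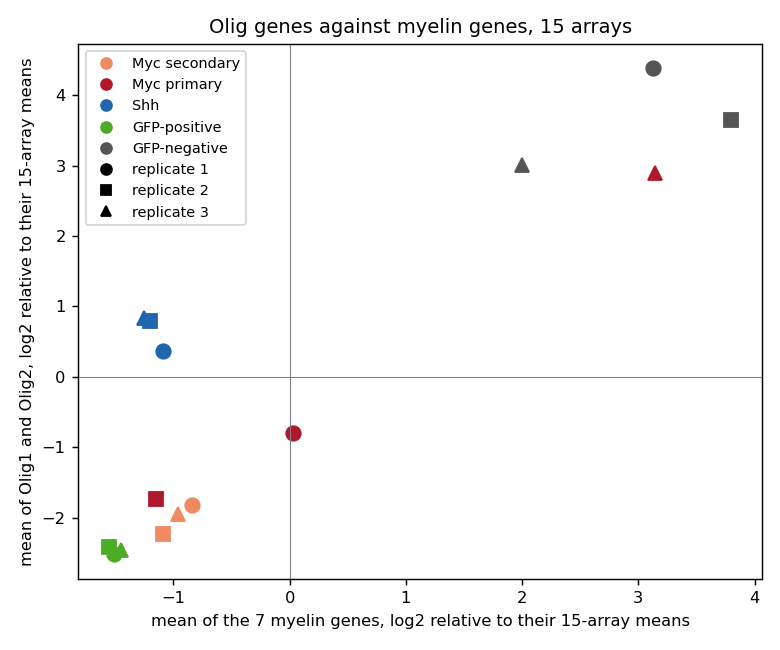
Mean of Olig1 and Olig2 on the vertical axis against the mean of the 7 myelin genes on the horizontal axis, for each array, in log2 units with each gene centred on its mean over the 15 arrays. The 3 Shh arrays lie above the Myc secondary and GFP-positive arrays at a like myelin level, and Myc primary 3 lies beside the GFP-negative arrays.

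Myc secondary tumours had a lower Olig1 signal than Shh tumours, -3.41 ± 0.88 (SE, adjusted p = 0.015, limma), at least 5.1-fold, and no other member was called in either direction. Of all genes, 12.1% were called lower and 10.4% higher. Olig2 differed by -1.91 ± 0.81 (adjusted p = 0.12, limma), with 4.59 in Myc secondary tumours and 6.5 in Shh tumours. On the 6 arrays alone, Olig1 and Olig2 were lower (adjusted p = 0.00018 and 0.0046, limma) and Mal and Cldn11 higher, by 0.69 and 0.96 (adjusted p = 0.031 and 0.046, limma), beside 20.2% of all genes called. The count was 2, Olig1 and Olig2, without Myc primary 3. Arrays of the 2 groups did not overlap for 4 of 9 genes, beside 42.4% of all genes. These 2 groups also lie on either side of the cut in title numbers. With the run term, which rests on GFP-negative 3, Olig1 differed by -2.69 and was not called (adjusted p = 0.33, limma). The median difference of the 9 genes was -0.10, and 0.07 for all genes.

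Between Myc primary and Shh tumours, only Cldn11 was called, higher by 2.43 ± 0.72 in Myc primary tumours (SE, adjusted p = 0.041, limma). Of all genes 8.38% were called higher and 7.28% lower, and arrays did not overlap for 1 of 9 members beside 36.5% of all genes. The median of the 9 genes was 1.79, against 0.08 for all genes, and it rests on Myc primary 3. Without that array Cldn11 differed by 1.27 (adjusted p = 0.045, limma), Olig1 was lower (-2.36, adjusted p = 0.00024, limma), and the 6 other myelin genes differed by 0.13 to 0.95 with none called. Olig1 differed by -0.85 and Olig2 by -0.24 with all arrays, neither called. The Cldn11 call was lost in 10 of the 15 fits that leave out 1 array, those without Myc primary 1, Myc secondary 2 or 3, any Shh array, any GFP-positive array or GFP-negative 2, where its adjusted p was 0.051 to 0.11. On the 6 arrays alone it was not called either (adjusted p = 0.17, limma), where 13.4% of all genes were. Without Myc primary 2 the count was 4, all higher, with Mbp, Cnp and Mag beside Cldn11.

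Myc primary tumours had lower signals than GFP-negative cells for 6 of the 9 genes, Olig1, Olig2, Cnp, Mbp, Mag and Cldn11, beside 14.3% of all genes lower and 18.5% higher. Olig1 differed by -4.05 ± 0.88 (SE, adjusted p = 0.0038, limma), a 16.6-fold lower signal, and Cnp by -3.90 ± 0.94 (adjusted p = 0.0076, limma), 14.9-fold. Mog, Mobp and Mal differed by -1.33, -1.30 and -0.25 and were not called. By probe set 8 of 15 were lower beside 13.0% of all, the median gene was at -3.07 beside 0.05, and arrays did not overlap for 4 of 9 members beside 40.9% of all genes. On the 6 arrays alone limma called 0 of the 9, with 5 at an unadjusted p below 0.05 and 21.9% of all genes called. In a fit without Myc primary 3, 8 genes were called, with Olig1 at -5.55 and Cnp at -5.49, and Mal was not (-1.55, adjusted p = 0.21, limma). Without the 3 arrays set apart, Mal was called lower too (-2.42, adjusted p = 0.023, limma). The Cldn11 call, at an adjusted p of 0.048, was lost in every fit that left out 1 array other than Myc primary 3, with adjusted p of 0.054 to 0.20, and with each array centred on its median (adjusted p = 0.053, limma). Olig2 was not called without Myc primary 1, Myc primary 2 or GFP-negative 1, at -2.74, -2.14 and -2.65 (adjusted p = 0.05, 0.051 and 0.05, limma).

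The Myc primary tumours were not alike. Myc primary 3 had the highest value of its group for 9 of 9 genes, by 2.25 for Mog to 4.18 for Olig1 over the next array. Myc primary 1 was above Myc primary 2 for 9 of 9, by 0.42 to 2.31. The share of all genes with this order of arrays was not computed. Set against GFP-negative cells, Myc primary 3 was above all of those arrays for Mal, within their range for Olig2, Mog, Mobp and Cldn11, and below them for Olig1, Cnp, Mbp and Mag. Its difference from the GFP-negative mean ran from -1.05 for Olig1 to 2.35 for Mal. Mal and Mobp, with the largest positive differences, were also the members with the widest span among the GFP-negative arrays.

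**Figure D4:**
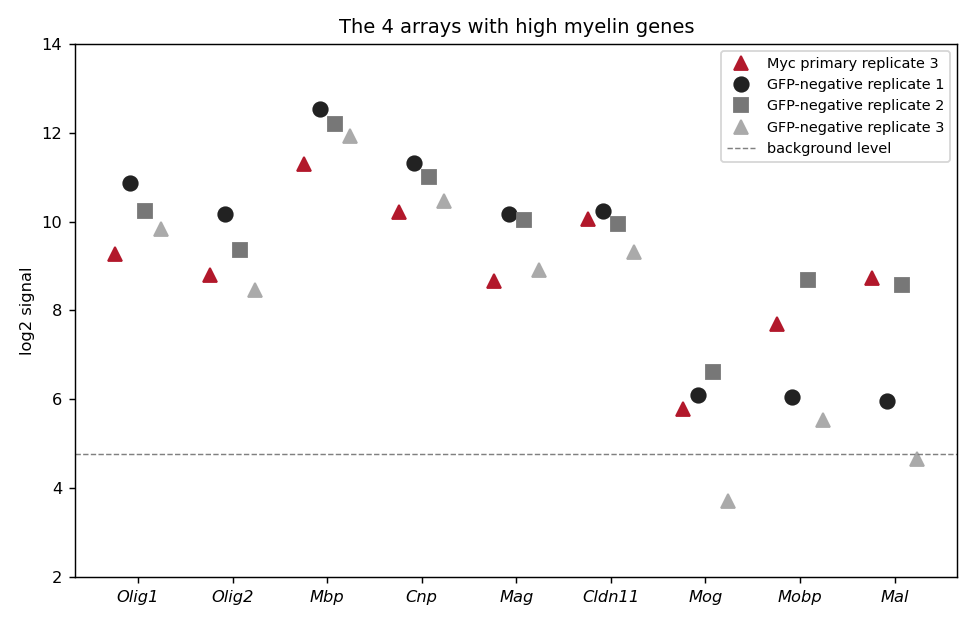
Log2 signal of the 9 genes on Myc primary 3 and on the 3 GFP-negative arrays, with genes along the horizontal axis and the arrays set slightly apart. Myc primary 3 is the highest of the 4 for Mal and the lowest for Olig1, Cnp, Mbp and Mag.

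Markers of other cells were also higher on Myc primary 3 than on the other Myc primary arrays. It was highest of the 3 for 7 of 7 endothelial and mural markers, for 5 of 6 fibroblast markers and for 3 of 8 astroglial markers, but for none of 8 microglial markers. The list means on Myc primary 3, 1 and 2 were 7.04, 5.50 and 5.36 for endothelial and mural cells, 7.89, 5.86 and 6.34 for fibroblasts, 7.22, 6.92 and 4.92 for astroglia and 5.92, 6.13 and 5.69 for microglia. Of the Schwann cell markers measured, Pmp2 read 4.86 and Ncmap 4.21 there, near or below the background, and Egr2 8.18. Of forebrain neuron markers, Slc17a7 and Tbr1 were below the background on all 3 arrays, Neurod6 read 8.14 on Myc primary 3 and 6.07 and 6.62 on Myc primary 1 and 2, and Bcl11b was highest on Myc primary 2, with 6.90, 5.89 and 7.61 on Myc primary 3, 1 and 2. The part of these cells in the member values was not tested.

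Myc secondary tumours did not differ by the test from Myc primary tumours for any of the 9 genes, where 1.17% of all genes were called in either direction, and arrays did not overlap for 2 of 9 beside 17.7% of all genes. All 9 differences were below 0, from -2.59 for Mbp to -0.77 for Mog, with a median of -1.68 beside -0.03 for all genes, and 3 genes had an unadjusted limma p below 0.05. The differences ran from -1.25 for Mbp to 0.09 for Mal without Myc primary 3, and none was called. The 2 groups lie on either side of the cut in title numbers. With the run term, which rests on GFP-negative 3, Mog, Mobp and Mal were above 0 (1.86, 0.26 and 1.4), with none of the 9 called. Without Myc primary 2, Mbp was lower (-3.84, adjusted p = 0.016, limma), and without the 3 arrays that stand apart Olig1 was (-1.14, adjusted p = 0.04, limma).

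**Figure D5:**
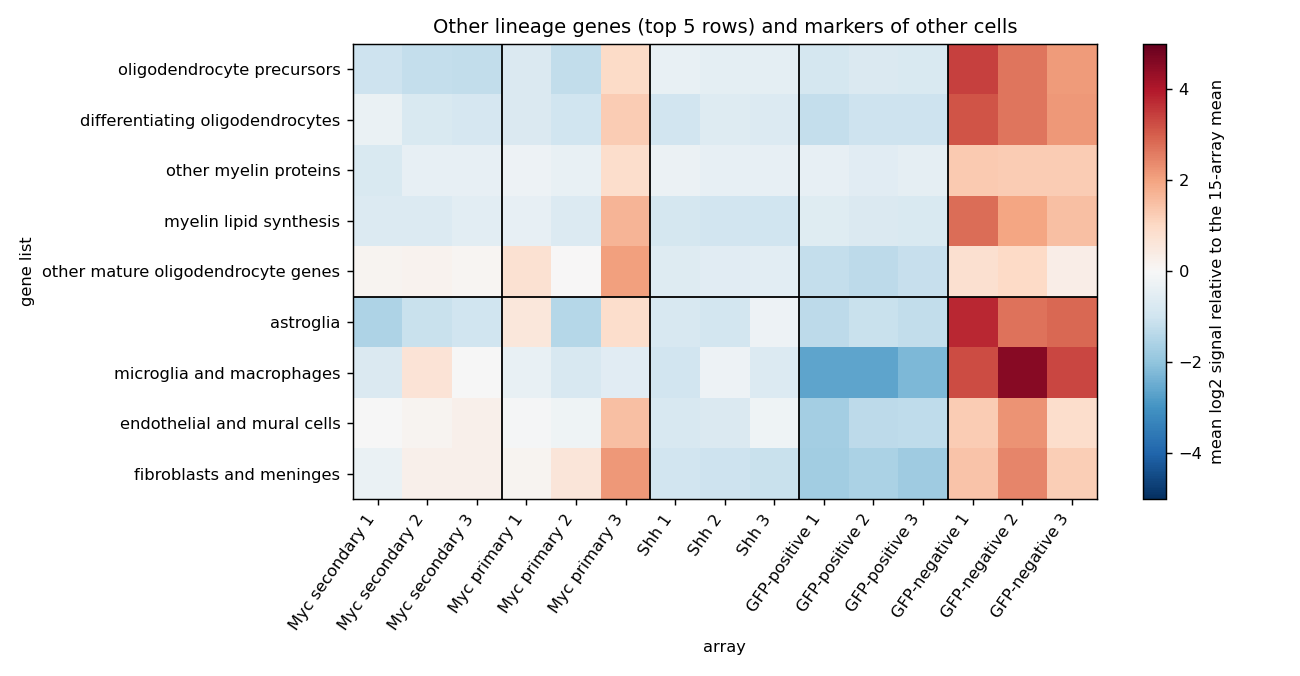
Mean log2 signal of each gene list (rows) on each array (columns, by group), drawn as colour relative to the list's mean over the 15 arrays; the top 5 rows are other genes of the oligodendrocyte lineage and the lower 4 are markers of other cells. Myc primary 3 is the highest Myc primary array in each of the 5 lineage lists, and the GFP-negative arrays lead in the precursor and differentiation lists.

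Other genes of the lineage were read from 5 lists of 58 genes, of which 47 had a probe set of their own; Myrf and Cspg4 were among those that had none. In GFP-positive against GFP-negative cells, 6 of the 47 were higher and 31 lower, beside 12.2% and 13.6% of all genes. The precursor list had 7 of 9 genes lower, with Gpr17, a receptor of committed precursors, at least 72.2-fold lower (adjusted p = 4.1e-05, limma) and the transcription factor Nkx2-2 at least 13.4-fold lower. Sox10 read 5.73, 4.91 and 4.82 in Myc secondary tumours, 6.06, 5.23 and 9.58 in Myc primary tumours, 5.64, 5.27 and 5.01 in Shh tumours, 4.89, 4.94 and 4.88 in GFP-positive cells and 10.93, 10.03 and 8.99 in GFP-negative cells. It thus had the same high arrays as the myelin genes, and between Shh tumours and GFP-positive cells it was not called (0.40 ± 0.84, adjusted p = 0.86, limma). The Shh arrays were nevertheless all above the GFP-positive arrays, and the standard error draws on the Myc primary SD of 2.31.

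Pdgfra, the growth factor receptor of oligodendrocyte precursors, went the other way. It read 4.94, 4.25 and 4.20 in Myc secondary tumours, 4.85, 4.85 and 6.10 in Myc primary tumours, 8.82, 8.39 and 7.28 in Shh tumours, 8.50, 9.06 and 8.51 in GFP-positive cells and 5.26, 5.50 and 4.23 in GFP-negative cells. Its signal was higher in GFP-positive cells than in GFP-negative cells by 3.69 ± 0.45 (adjusted p = 7.9e-05, limma) and higher in Shh tumours than in GFP-negative cells by 3.17 ± 0.45 (adjusted p = 0.00031, limma). Pdgfra and Olig1 were therefore both above the background in Shh tumours, Pdgfra alone in GFP-positive cells, and Olig1 on all 3 arrays of GFP-negative cells, where Pdgfra was lower.

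The remaining 4 lists fell in part. In GFP-positive against GFP-negative cells, 5 of 7 genes of differentiating oligodendrocytes were lower, among them Enpp6, a phosphodiesterase of newly formed oligodendrocytes, at least 82.7-fold lower (adjusted p = 1.8e-05, limma). Of the lipid genes 6 of 7 were lower and 1 higher, with Ugt8a, which makes the galactolipids of myelin, at -4.88 ± 0.81 (adjusted p = 0.0008, limma). Of 13 other myelin proteins 7 were lower and 1 higher; the higher one was Cntn2, an axonal adhesion molecule that migrating granule neurons also carry (4.14 ± 0.40, adjusted p = 1.1e-05, limma), with 1 of 3 GFP-negative arrays above the background. Of 11 other mature oligodendrocyte genes 6 were lower and 3 higher, namely Ppp1r14a, an inhibitor of myosin phosphatase, Anln, the cytokinesis protein anillin, and Qdpr, which recycles tetrahydrobiopterin. These 3 do not act in myelin alone.

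In Shh tumours against GFP-negative cells 5 of the 47 lineage genes were higher and 32 lower, beside 15.1% and 12.6% of all genes. The lower ones included all 7 lipid genes and 7 of 9 precursor genes. Against GFP-positive cells, Shh tumours had 3 higher, Itpr2, Apod and Ppp1r14a, and 1 lower, the sterol synthesis gene Hmgcs1, counts near the shares of all genes (4.97% higher and 3.17% lower). Neither Sox10 nor any other of the 9 precursor genes was among them. In Myc primary tumours against GFP-negative cells 5 were higher and 23 lower, beside 18.5% and 14.3% of all genes. Ppp1r14a had the largest rise, at least 33.7-fold over the background (measured difference 6.06 ± 0.35, adjusted p = 2.2e-07, limma). The counts were 4 higher and 28 lower without Myc primary 3, a fit for which the share of all genes was not computed.

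In Myc primary against Shh tumours 7 of the 47 lineage genes were higher and 4 lower, beside 8.38% and 7.28% of all genes. Without Myc primary 3, 8 of the 47 were called, and the share of all genes in that fit was not computed. The median differences of the 5 lists, 0.35 to 1.64 with all arrays, were then -0.12 to 0.84. In Myc secondary against Shh tumours 5 were higher and 5 lower, beside 10.4% and 12.1%. Pdgfra was lower in both, by -2.90 ± 0.45 and -3.70 ± 0.45 (adjusted p = 0.001 and 0.00011, limma), and so was the tetraspanin Cd9, by -1.30 ± 0.17 and -1.44 ± 0.17. Pllp, a proteolipid of myelin related to Mal, was higher in both, by 2.90 ± 0.38 and 2.23 ± 0.38 (adjusted p = 0.0003 and 0.0011, limma). These 2 comparisons share the Shh arrays. In Myc secondary against Myc primary tumours only Cemip2 was called, higher by 1.55 ± 0.30 (adjusted p = 0.022, limma), and not without Myc primary 3.

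Among 8571 genes that are no members and reach 2 log2 units over the background in some group, the 8 whose values over the 15 arrays were most like the mean of the 7 myelin genes were Serpinf1 (Pearson r = 0.982), Sox10 (0.981), Elovl7 (0.978), Kndc1 (0.977), Gas7 (0.974), Lum (0.973), Cmtm5 (0.971) and Plekhb1 (0.970). For the mean of Olig1 and Olig2 they were Plat (0.965), Mob3b (0.965), Parvb (0.964), Cdh11 (0.960), Kank1 (0.954), Fgfr2 (0.95), Phlda1 (0.945) and Tcf7l2 (0.944). The arrays fall into 4 high and 11 low ones for the mean of the myelin genes. These coefficients mostly describe that split and are given as a description without a test. The 2 sets of 8 share no gene. Plat averaged 7.54 in Shh tumours, against 4.91 in GFP-positive cells, and Serpinf1 3.58 in Shh tumours, against 3.46 in GFP-positive cells.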

How the data were processed

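RNA of 15 samples was labelled with biotin and hybridised to 1-colour arrays. The deposited values are log2 signals that the authors made by RMA in Partek 6.5, per the submitters' processing notes; RMA settings are not given in the sources used here. They were used as deposited. Of 45141 probe sets, 104 controls were left out, 28898 are listed with 1 gene and 551 with several. Symbols were updated through gene identifiers of GRCm38.p6 for 28689 probe sets and kept for 209. A gene was read by its probe set of highest mean over all arrays.

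limma 3.58.1 in R 4.3.3 (lmFit, eBayes; 10 residual and 2.58 prior degrees of freedom) fitted all 45037 probe sets over the 5 groups, with Benjamini-Hochberg adjustment over all of them in each of 7 comparisons. The fit was tested on simulated data. The named genes were all members, Pdgfra and Sox10, from each list the 4 genes at most that had the lowest adjusted p, and the 8 most similar genes; other genes named were chosen after their values were seen. Members and lists were chosen with earlier results of these data known. Alternatives covered probe set choice, dim probe sets, normalization, variance model, arrays in the fit and each array left out in turn. Fits of the lineage lists without Myc primary 3, or without Myc primary 3, GFP-negative 3 and Myc secondary 1, were added after seeing the data.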

Additional observations from a re-analysis of the deposited data

How the results depend on the processing

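No paired analysis was possible because the labels carry no replicate numbers. Of 1575 values of single genes under the alternatives, 26 changed sign, 14 of them other than through leaving out 1 array. Leaving out 1 array lost a call for 63 values and gained one for 14. The other alternatives lost a call for 18 values and gained one for 22. Leaving out 1 array gave 6 to 9 member genes called for GFP-positive against GFP-negative cells, 4 to 8 for Myc primary against GFP-negative, 4 to 8 for Shh against GFP-negative, 0 to 2 for Shh against GFP-positive, 0 to 4 for Myc primary against Shh, 1 to 2 for Myc secondary against Shh and 0 to 1 for Myc secondary against Myc primary. With only the 6 arrays of a comparison the counts were 0 for Myc primary against GFP-negative, 4 for Shh against GFP-positive, 0 for Myc primary against Shh and 4 for Myc secondary against Shh, beside 21.9%, 18.4%, 13.4% and 20.2% of all genes called in those fits. Array weights gave 2 for Shh against GFP-positive and 2 for Myc secondary against Shh. Without Myc primary 3, GFP-negative 3 and Myc secondary 1 the counts were 2 for Shh against GFP-positive, 3 for Myc primary against Shh, 2 for Myc secondary against Shh and 1 for Myc secondary against Myc primary, and 17 lineage genes in Myc secondary against Shh and 0 in Myc secondary against Myc primary. Without Myc primary 3, 0 lineage genes were called in Myc secondary against Myc primary. A term for the 2 runs, set at a gap in the title numbers, was estimated from GFP-negative 3 against the other GFP-negative arrays alone. Run and array cannot be told apart in this term. It gave 0 for Shh against GFP-positive and 0 for Myc secondary against Shh, with Olig1 at 3.19 and -2.69 (adjusted p = 0.30 and 0.33, limma). With it, signs turned for Mag (-0.83), Mobp (-1.58), Mal (-2.01) and Cldn11 (-0.58) in Shh against GFP-positive, for Mbp (0.15), Mag (1.09) and Mobp (1.66) in Myc secondary against Shh, and for Mog (1.86), Mobp (0.26) and Mal (1.40) in Myc secondary against Myc primary. Other sign changes were Cnp in Shh against GFP-positive, 0.01 with the mean of its probe sets, 0.01 with array weights and -0.14 to 0.07 over the arrays left out; Mobp in Myc secondary against Shh, 0.05 with the mean of its probe sets; and Mal in Myc secondary against Myc primary, 0.10 without the 3 arrays. Over the arrays left out in turn the sign also changed for Mal in Myc primary against GFP-negative (-1.55 to 0.84), Olig1 (-2.36 to 0.06) and Olig2 (-1.51 to 0.69) in Myc primary against Shh, and Mog (-1.28 to 0.05) and Mal (-2.20 to 0.09) in Myc secondary against Myc primary. Apart from what the array left out shows, the cause was not tested. Centring each array on its median moved the median difference of all probe sets to 0.22 for GFP-positive against GFP-negative and for Myc primary against GFP-negative, to 0.15 for Shh against GFP-negative and for Myc secondary against Shh, and to 0.10 for Myc primary against Shh.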
